A study of Mus musculus with 12 samples.

Results

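Interferon-stimulated genes were followed across 12 bead arrays of mouse liver cells. The set held 36 named genes of the 19057 genes that the array lists: 22 mainly known as targets of type I interferon, 12 mainly known as targets of interferon gamma, and the regulators Irf1 and Irf8, which were kept apart from both. A probe was present for 35 of them (Ifi44 had none), with 64 probes in all, and the probe with the highest mean signal stood for each gene. Of these 35 genes, 30 passed a detection filter (p below 0.05 for detection on 3 or more arrays), as did 10641 genes in all. The 30 comprised 17 type I members, 11 gamma-type members, Irf1 and Irf8.

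All mice were age-matched males of strain B6, and their ages are not given in the labels. Tumours were raised with DEN, the liver carcinogen diethylnitrosamine. The 4 groups had 3 arrays each: normal hepatocytes, fully malignant HCC (hepatocellular carcinoma), and premalignant hepatocytes labelled non-aggregate or aggregate. The labels do not say whether the normal hepatocytes came from mice without DEN, whether animals were pooled or whether replicates were separate animals, and the p-values therefore cover the spread among these arrays, which may be technical. Normal hepatocytes and HCC shared one chip, and both premalignant groups shared the other.

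Interferons are secreted by cells that detect the nucleic acids of viruses, or their own nucleic acids in the wrong place. Type I interferon acts through a complex with STAT2 and IRF9 that binds the interferon-stimulated response element in promoters. Interferon gamma, made by T and natural killer cells, acts at the gamma-activated site and raises immunity GTPases, immunoproteasome subunits and the peptide transporters that supply MHC class I. Hepatocytes, macrophages and endothelial cells of the liver respond to both.

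RefSeq promoter windows (build GRCm38.p6, 250 bases before to 50 bases after the transcription start) were found for 29 of the 36 members. The response element was searched on both strands as GAAANNGAAA and the gamma-activated site as TTCNNNGAA. The response element was present in 14 of 29 members (48.3%), against 3.99% of 27025 genes with a window. By list, 10 of 18 type I members and 4 of 9 gamma-type members held it. The gamma-activated site was present in 9 of 29 members (31.0%), against 9.55% of genes. It was in 5 of 18 type I members (27.8%) and 2 of 9 gamma-type members (22.2%), so its share was not higher in the gamma-type list. Both Irf1 and Irf8 held the gamma-activated site and neither held the response element. In Bst2 the letters of a gamma-activated site overlapped those of a response element. A window without a match shows only that these letters were not in it.

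The sites below are shown because they are what many members share outside the arrays: 3 effectors, 1 sensor and 1 transcription factor of the type I list, then 4 GTPases of the gamma-type list. Each is written 5′ to 3′ on the strand of its gene, with response element matches in capitals, and a match on the opposite strand reads as its complement.
Isg15 (chr4:156200871-156200900, minus strand): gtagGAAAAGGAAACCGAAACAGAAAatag
Ifit3 (chr19:34583363-34583392, plus strand): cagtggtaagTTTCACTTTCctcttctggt
Bst2 (chr8:71537583-71537612, minus strand): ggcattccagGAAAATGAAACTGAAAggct
Ddx58 (chr4:40239804-40239833, minus strand): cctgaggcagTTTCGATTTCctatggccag
Stat2 (chr10:128270266-128270295, plus strand): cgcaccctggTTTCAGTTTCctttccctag
Irgm1 (chr11:48871425-48871454, minus strand): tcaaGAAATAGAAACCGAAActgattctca
Igtp (chr11:58199512-58199541, plus strand): tctaggaactGAAACTGAAAgctgttcggg
Gbp2 (chr3:142620594-142620623, plus strand): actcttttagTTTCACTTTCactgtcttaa
Gbp3 (chr3:142559989-142560018, plus strand): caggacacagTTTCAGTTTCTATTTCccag

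The whole windows of Isg15 and Igtp are shown as examples from the type I and the gamma-type list, and they need not be typical of them. Capitals mark response elements and, in Igtp, also the gamma-activated site.
Isg15 promoter (chr4:156200769-156201068, minus strand): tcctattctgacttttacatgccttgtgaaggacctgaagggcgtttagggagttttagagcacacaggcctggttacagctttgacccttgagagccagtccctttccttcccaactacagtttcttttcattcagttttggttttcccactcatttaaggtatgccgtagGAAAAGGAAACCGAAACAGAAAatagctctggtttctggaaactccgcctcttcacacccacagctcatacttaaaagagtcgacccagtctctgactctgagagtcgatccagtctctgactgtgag
Igtp promoter (chr11:58199306-58199605, plus strand): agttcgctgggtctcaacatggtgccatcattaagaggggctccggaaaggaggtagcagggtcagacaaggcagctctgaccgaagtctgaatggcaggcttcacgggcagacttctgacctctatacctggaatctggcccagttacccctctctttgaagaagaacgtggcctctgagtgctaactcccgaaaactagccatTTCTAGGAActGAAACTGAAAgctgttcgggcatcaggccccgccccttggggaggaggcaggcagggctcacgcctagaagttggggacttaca
Isg15 held 3 overlapping response elements between 78 and 57 bases before its start. Igtp held 1 gamma-activated site, from 45 to 37 bases before its start, and 1 response element, from 34 to 25 bases before it. The windows of Tap1 and Psmb9, which lie head to head, shared 275 bases, and neither motif was found in them.

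**Figure D1:**
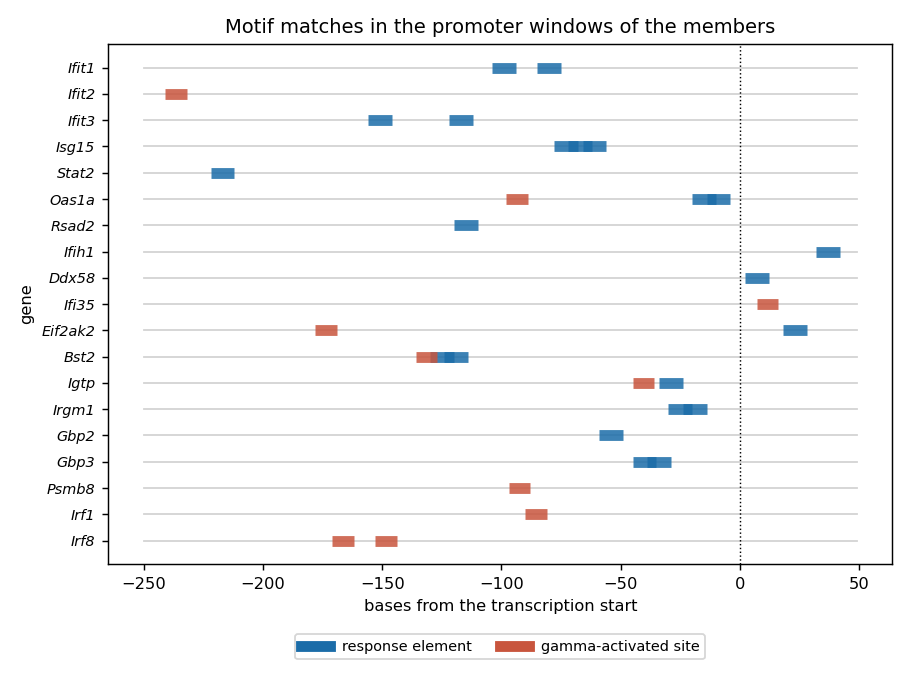
Motif matches in the RefSeq promoter windows of the members that held at least 1 match, by distance in bases from the transcription start (dotted line). Blue bars are response elements and red bars gamma-activated sites; the 14 members with a response element include 10 of the type I list, and Irf1 and Irf8 hold only gamma-activated sites.

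The arrays detected between 15354 and 19482 probes each, with a mean signal between 314.4 and 403.3. Of 15 hepatocyte markers, 14 or 15 were detected on every array. Macrophage, endothelial and stellate cell markers were measured in every group as well, so the RNA was not of hepatocytes alone. All levels below are log2 intensities after background correction and quantile normalization, and they are compared between arrays for one probe, never between probes. In these bulk samples, fewer cells of a type and less RNA per cell cannot be told apart.

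In both premalignant groups 1 array stood apart for the interferon-stimulated genes. Non-aggregate replicate 3 was the highest of its group for 28 of 30 members (93.3%), where it was the highest for 30.7% of all genes. Aggregate replicate 3 was the highest of its group for 27 of 30 members (90%), where it was the highest for 33% of all genes. The 3 members that were not highest there were Irf1 and Irf8, which were highest in replicate 1 of both groups, and Bst2 among aggregates, which was highest in replicate 2. Beside the members, 28 and 27 of 32 other interferon-stimulated genes were also highest in these arrays.

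A mean over the 17 type I members, each centred on its mean over the 12 arrays, gave -0.69, -0.55 and -0.92 in normal hepatocytes 1 to 3. It was 0.46, 0.72 and -0.11 in HCC. It was -0.44, -0.39 and 1.19 in non-aggregates, and -0.29, -0.25 and 1.26 in aggregates. The third array of each premalignant group therefore lay above every HCC array, and the other premalignant arrays lay between normal hepatocytes and HCC.

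The same mean over the 11 gamma-type members was -0.43, -0.50 and -0.68 in normal hepatocytes. It was 0.28, 0.57 and 0.15 in HCC. It was -0.41, -0.20 and 0.72 in non-aggregates, and -0.14, -0.18 and 0.83 in aggregates. The order of the groups was that of the type I list, with a narrower range. HCC replicate 2 was the highest tumour array for 20 of 30 members, and HCC replicate 3 was the lowest for 18.

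Within each premalignant group, macrophage markers were also highest in the third array for most genes. Their summed level over 16 genes was 1221, 1618 and 3655 in non-aggregates 1 to 3, and 6195, 3710 and 10390 in aggregates 1 to 3. Aggregate replicate 3 was the highest of its group for 16 of 16 macrophage genes, and non-aggregate replicate 3 for 13 of 16. Between the groups the 2 measures did not move together. Aggregates 1 and 2 had larger macrophage sums than non-aggregate 3, but type I means of -0.29 and -0.25 against its 1.19. The HCC arrays had sums between 10500 and 16740 and the normal arrays between 1461 and 2131, so non-aggregate replicate 3 was above every HCC array in its type I mean and far below every HCC array in its macrophage sum. The summed level of 4 detected T and NK cell markers was 972.9, 917.5 and 890 in non-aggregates and 973.2, 912 and 871.8 in aggregates, a sum that follows the brightest probe. Their centred mean was -0.30, -0.37 and -0.35 in non-aggregates and 0.16, -0.13 and -0.10 in aggregates, and the third array was the highest for 2 of 4 of these genes among non-aggregates and for 0 of 4 among aggregates. Among T and NK cell genes, Cd4, Gzmb, Klrb1c and Ncr1 were not detected on any array. The part of macrophages or other cells in the high premalignant values was not tested.

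**Figure D2:**
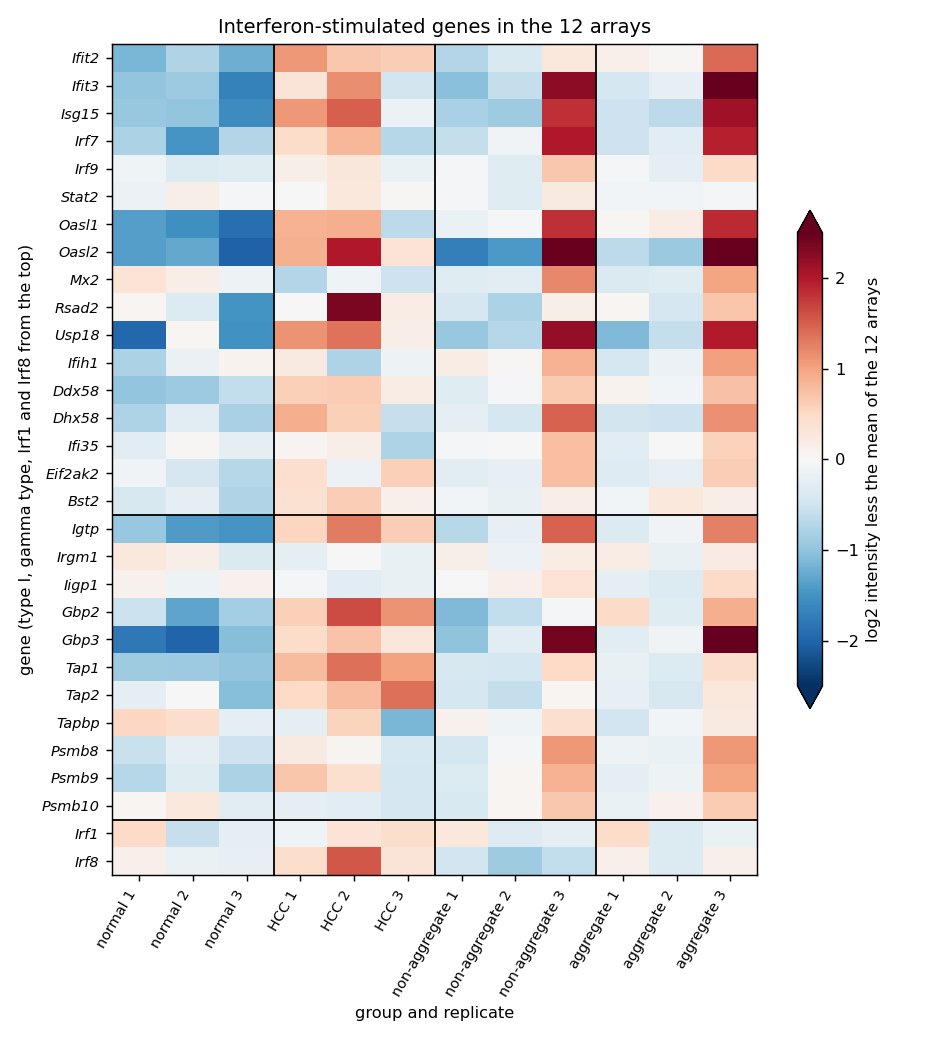
Log2 intensity of the 30 members that passed the filter, less the mean of the 12 arrays, for each array (columns, by group and replicate), with colours cut at 2.5 in both directions. Non-aggregate 3 and aggregate 3 stand out in 28 and 27 of 30 members as the highest array of their group, but not in Irf1 and Irf8. HCC arrays are mostly above normal arrays.

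**Figure D3:**
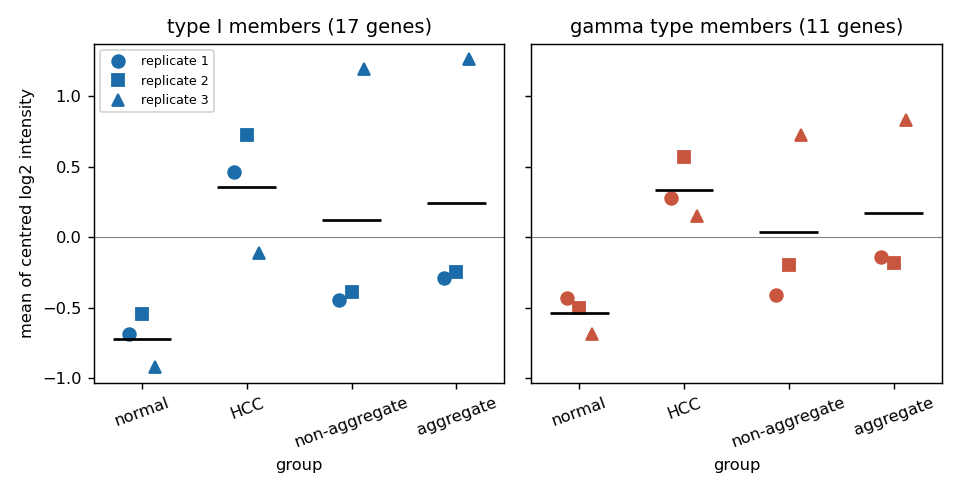
Mean of centred log2 intensity over 17 type I members (left) and 11 gamma-type members (right) in each array, with replicates as circle, square and triangle and the group mean as a line. Replicate 3 of both premalignant groups, at 1.19 and 1.26 for type I, lies above all HCC arrays.

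The interferon genes that were looked up gave no signal above background on these arrays, and other interferon genes were not examined. Probes for Ifnb1, Ifna2, Ifna4, Ifna5, Ifnk and Ifng were detected on 0 of 12 arrays, as was Il12a, which encodes a chain of interleukin 12. Il18, a cytokine that induces interferon gamma, was detected on all arrays and fell in HCC by 1.20 on the log2 scale (SE 0.17, adjusted p = 0.00011 in limma). Il12b and Herc6 were not analysed here.

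The comparison of HCC with normal hepatocytes showed which members rose in tumours. Of 30 members 9 rose and 0 fell, where 23% of all 10641 genes rose and 26% fell, so the share of members that rose (9 of 30) was near that of all genes, and no member fell. The risers were Tap1, Gbp2, Igtp and Tap2 of the gamma-type list, Ifit2, Oasl1, Ddx58 and Bst2 of the type I list, and Irf8. The median log2 change was 1.2 over type I members and 0.82 over gamma-type members, beside -0.08 over all genes. In 15 of the 30 members the HCC and normal arrays did not overlap. Overlap was not counted over all genes, so this number does not set the members apart.

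The spread in this test was estimated over all 12 arrays, so the high premalignant arrays widened it. With only normal and HCC arrays in the fit, 14 members rose, Ifit3, Isg15, Irf7, Oasl2, Usp18 and Gbp3 among them, while Irf8 did not pass and 18.1% of all genes rose. With the third pair of premalignant arrays left out, an alternative chosen after the data were seen, 18 members rose and 1, Mx2, fell, where 21.7% of all genes rose and 23.7% fell. Tap1, Gbp2, Ifit2, Ddx58, Bst2 and Tap2 passed in all 25 alternatives, Igtp in 24, Oasl1 in 20 and Irf8 in 18.

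The sensors of double-stranded RNA came first in the pathway and differed among themselves. Ddx58, which encodes the sensor RIG-I, was at 5.74, 5.82 and 6.11 in normal arrays and at 7.32, 7.36 and 6.90 in HCC. Every HCC array was above every normal array, and Ddx58 rose 2.47-fold (log2 change 1.3, SE 0.26, adjusted p = 0.00162 in limma). Premalignant arrays read 6.42, 6.67 and 7.37 for non-aggregates and 6.82, 6.66 and 7.46 for aggregates, all above the normal ones. Ifih1, which encodes the sensor MDA5, had a log2 difference of 0.07 (adjusted p = 0.889) with overlapping groups. Dhx58, which encodes the regulator LGP2, was at 6.37, 6.85 and 6.32 in normal arrays and at 8.04, 7.73 and 6.56 in HCC. HCC replicate 3 lay within the normal range, and its difference of 0.93 did not pass (adjusted p = 0.189).

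Of the transcription factors, Irf8 passed the test. Irf8, a factor of macrophages and dendritic cells, was at 5.79, 5.49 and 5.46 in normal arrays and at 6.10, 7.21 and 5.99 in HCC. The second HCC array was well above the others, and the lowest HCC array was just above the highest normal one. Irf8 rose 1.8-fold (log2 change 0.85, SE 0.28, adjusted p = 0.0249 in limma), but without HCC replicate 2 its change was 0.46 and did not pass (adjusted p = 0.0722). Beside it 2 of 4 dendritic cell markers and 11 of 16 macrophage markers rose in HCC, where 23% of all genes did. The 2 dendritic cell markers were Cd74 and Siglech, and for Siglech the groups overlapped.

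Irf7, the factor that amplifies interferon production, was at 6.49, 5.81 and 6.55 in normal arrays and at 7.75, 8.12 and 6.59 in HCC. The third HCC array was close to 2 of the normal arrays, and the difference of 1.20 did not pass (SE 0.72, adjusted p = 0.186). In the premalignant groups Irf7 reached 9.29 and 9.24 in the third arrays, against 6.70 and 7.21 in the other non-aggregates and 6.77 and 7.0 in the other aggregates. Stat2, Irf9 and Irf1 had log2 differences of 0.12, 0.35 and 0.33 in HCC, with overlapping groups. Stat2 and Irf9 encode subunits of the factor that binds the response element, and Irf1 is a factor first induced by interferon gamma.

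Of the 11 antiviral effectors and regulators that passed the filter, 3 rose in HCC, where 23% of all genes did. Ifit2, which encodes a protein that blocks translation of foreign RNA, was at 4.64, 5.02 and 4.55 in normal arrays, only 1 of which detected it, and at 6.87, 6.45 and 6.38 in HCC. The groups were far apart, and Ifit2 rose 3.55-fold (log2 change 1.83, SE 0.35, adjusted p = 0.00109 in limma). Oasl1, a paralogue of the oligoadenylate synthetases that restrains Irf7 translation in mice, was at 6.58, 6.43 and 6.08 in normal arrays and at 8.83, 8.87 and 7.31 in HCC. Its groups did not overlap, and it rose 3.92-fold (log2 change 1.97, SE 0.60, adjusted p = 0.0168 in limma), while its other probes gave 1.14 and 0.74. Bst2, the tether that holds budding virus on the cell surface, rose 1.78-fold, from between 9.16 and 9.68 to between 10.05 and 10.53 (adjusted p = 0.00259 in limma).

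Several of the best known type I targets had large differences that did not pass with the spread shared over the 12 arrays. Isg15, a ubiquitin-like modifier, was at 6.88, 6.84 and 6.26 in normal arrays and at 8.91, 9.32 and 7.68 in HCC. Its groups did not overlap, and its log2 difference of 1.98 had an SE of 0.80 (adjusted p = 0.0576 in limma). Its premalignant arrays read 7.02, 6.94 and 9.65 in non-aggregates and 7.31, 7.17 and 9.94 in aggregates, with replicate 3 of both groups above every HCC array. With only the normal and HCC arrays in the fit the SE was 0.41 and Isg15 rose (adjusted p = 0.0072), within a range of 0.000124 to 0.232 over 25 alternatives.

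Oasl2 had the widest range of the members, from 4.70 to 9.81. It was at 5.36, 5.46 and 4.70 in normal arrays and at 7.62, 8.73 and 7.08 in HCC, with no overlap. Its log2 difference of 2.64 had an SE of 1.20 (adjusted p = 0.0886 in limma), and its other probe gave 0.30. The third premalignant arrays reached 9.77 and 9.81, where the other 4 lay between 5.03 and 6.08. Usp18, the protease that removes ISG15 and dampens the type I receptor, was at 7.41, 9.42 and 7.85 in normal arrays and at 10.49, 10.73 and 9.52 in HCC. The second normal array came close to the lowest HCC array, and the difference of 2.02 did not pass (adjusted p = 0.0837).

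Ifit3, a partner of other IFIT proteins, was at 7.74, 7.82 and 7.02 in normal arrays and at 9.04, 9.88 and 8.26 in HCC, while the third premalignant arrays read 10.96 and 11.31. Its difference of 1.54 did not pass (adjusted p = 0.166). Rsad2, which encodes viperin, an enzyme that blocks the growth of viral RNA, was at 8.37, 7.98 and 6.83 in normal arrays and at 8.34, 10.67 and 8.51 in HCC. One HCC array was far above the rest and the groups overlapped. Its difference of 1.45 did not pass (adjusted p = 0.0535), and it passed in 6 of 25 alternatives. Eif2ak2, the kinase PKR that halts translation, had a difference of 0.69 with overlapping groups, and Ifi35 a difference of -0.02.

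Mx2 was the type I member with the lowest value in this comparison. It belongs to a family of dynamin-like GTPases and was at 6.61, 6.43 and 6.13 in normal arrays and at 5.53, 6.15 and 5.74 in HCC. Its difference of -0.58 did not pass (adjusted p = 0.271), and with the third premalignant pair left out Mx2 fell by 0.58 (SE 0.19, adjusted p = 0.0333), within a range of 0.0229 to 0.93 over 25 alternatives and at a difference of -0.05 with median scaling. In replicate 3 of the premalignant groups it was at 7.47 and 7.25, above all other arrays. Oas1a and Mx1 were detected on 2 of 12 arrays, and Ifit1 and Xaf1 on 0, and these were not tested.

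Among the immunity-related GTPases of the set, which attack vacuoles that hold microbes, Igtp rose, and Irgm1 and Iigp1 did not pass. Igtp was at 8.47, 7.99 and 7.93 in normal arrays and at 9.93, 10.70 and 10.03 in HCC. The groups were more than 1 log2 unit apart, and Igtp rose 4.27-fold (log2 change 2.09, SE 0.52, adjusted p = 0.00541 in limma). Irgm1 lay between 12.69 and 13.33 on all 12 arrays, with a difference of -0.17 in HCC. Its other probes gave 0.76 and 0.16, so its direction depends on the probe. Iigp1 had a difference of -0.20. Irgm2, a GTPase of this family outside the set, rose 3.12-fold in HCC (log2 change 1.64, SE 0.31, adjusted p = 0.00101 in limma).

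Of the guanylate-binding proteins, GTPases that coat such vacuoles, Gbp2 rose in HCC. Gbp2 was at 6.70, 5.91 and 6.39 in normal arrays and at 7.84, 8.87 and 8.35 in HCC. There was no overlap, and Gbp2 rose 4.06-fold (log2 change 2.02, SE 0.36, adjusted p = 0.000737 in limma). Gbp3 was at 5.75, 5.53 and 6.47 in normal arrays and at 8.0, 8.24 and 7.81 in HCC, with a difference of similar size (2.10) but an SE of 0.83 (adjusted p = 0.0538 in limma). The third premalignant arrays differed between these genes: they were at 9.94 and 10.18 for Gbp3, above all HCC arrays, and at 7.21 and 8.15 for Gbp2. Gbp6 was detected on 0 arrays.

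Both subunits of the transporter that carries peptides to MHC class I rose. Tap1 was at 5.2, 5.19 and 5.12 in normal arrays and at 6.88, 7.48 and 7.10 in HCC. The normal arrays were nearly equal, and Tap1 rose 3.96-fold (log2 change 1.99, SE 0.27, adjusted p = 0.000101 in limma). Its premalignant arrays, between 5.65 and 6.6, lay above all normal and below all HCC arrays. Tap2 rose 2.48-fold (log2 change 1.31, SE 0.31, adjusted p = 0.00412 in limma), from 8.90, 9.15 and 8.07 to 9.63, 9.91 and 10.52. Tapbp, the chaperone tapasin that bridges the transporter to MHC class I, had a difference of -0.52 (adjusted p = 0.257), while its other probe gave 0.92.

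The immunoproteasome subunits, which replace constitutive catalytic subunits in the proteasome, did not pass in HCC. Psmb9 was at 8.24, 8.66 and 8.16 in normal arrays and at 9.66, 9.36 and 8.53 in HCC, a difference of 0.82 (adjusted p = 0.0972). Psmb8 had a difference of 0.41 and Psmb10 one of -0.31, with overlapping groups. The partners they replace had differences of -0.66 for Psmb5, which fell (SE 0.23, adjusted p = 0.0343 in limma), -0.28 for Psmb6 and -0.37 for Psmb7. In the third premalignant arrays Psmb8 was at 10.82 and 10.83, Psmb9 at 9.82 and 9.95 and Psmb10 at 10.41 and 10.37, above all other arrays for each gene.

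**Figure D4:**
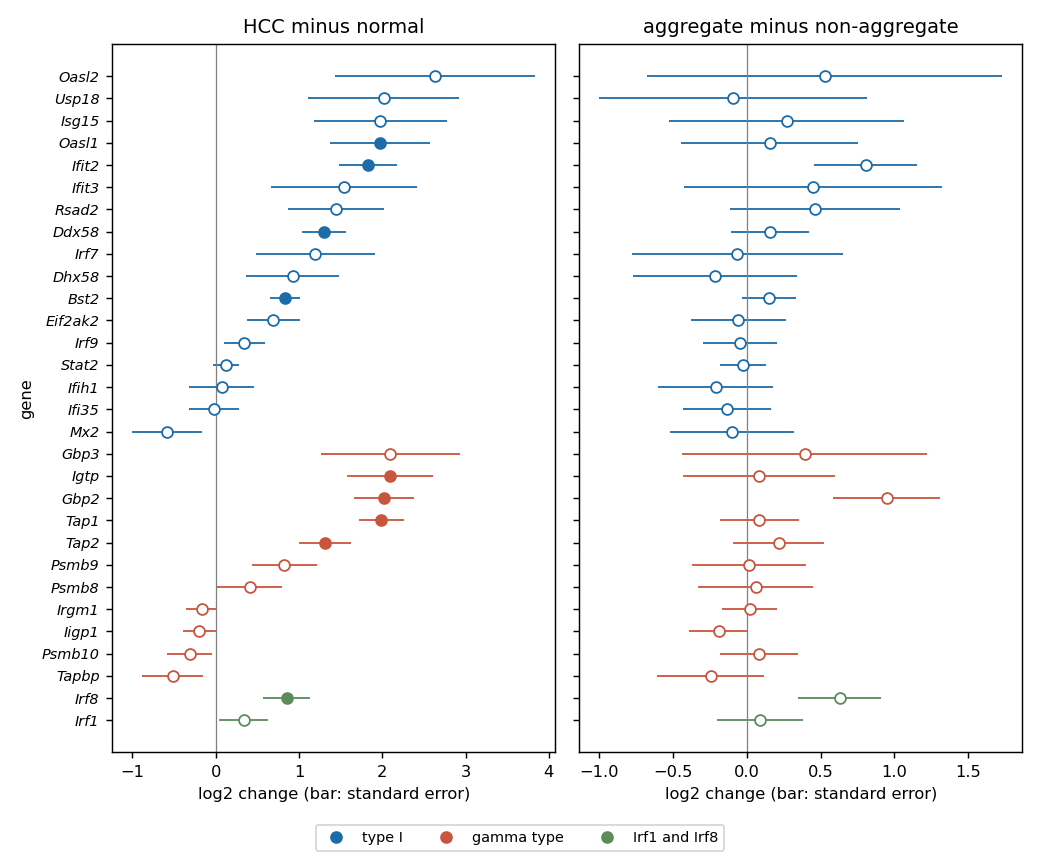
Log2 change of the 30 members in HCC against normal hepatocytes (left) and in aggregates against non-aggregates (right), with the standard error as a bar, 3 arrays a group, on axes of different width. Filled points passed at adjusted p below 0.05; 9 members did on the left and 0 on the right.

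**Figure D5:**
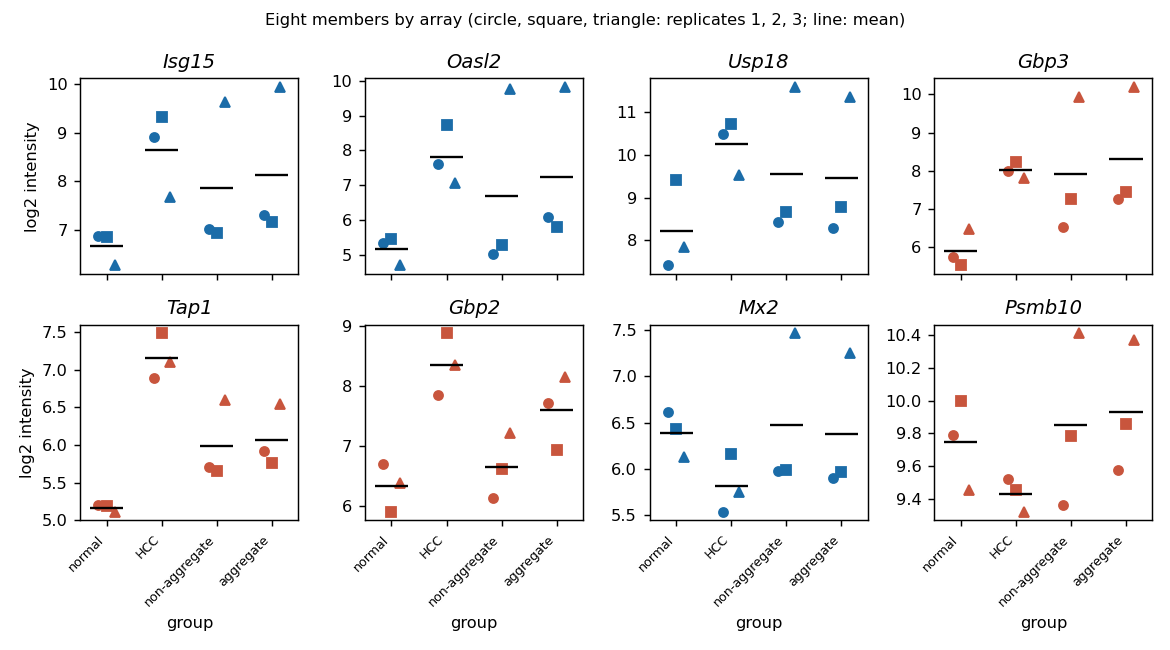
Log2 intensity of 8 members in each array, with replicates 1, 2 and 3 as circle, square and triangle and the group mean as a line; blue marks type I and red gamma-type members, and vertical axes differ and do not start at 0. In all 8 panels replicate 3 of both premalignant groups is the highest array of its group.

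Other genes of the pathway were read beside the members, in a comparison where 23% of all genes rose and 26% fell. Of 11 receptor and signalling genes 6 rose and 1 fell. Ifngr1, the ligand-binding chain of the interferon gamma receptor, was between 6.32 and 6.55 in normal arrays and between 8.47 and 9.56 in HCC, and rose 5.2-fold (SE 0.24 on the log2 scale, adjusted p = 1.31e-05 in limma). Il10rb, a chain shared by the receptors of type III interferon and interleukin 10, rose 4.9-fold, and Ifngr2, Tyk2, Jak1 and Pias1 rose by 1.08, 0.99, 0.84 and 0.64 on the log2 scale. Socs3, a feedback inhibitor of cytokine receptors, fell by 1.71. Ifnar1 was detected on 0 arrays. Unlike the members, the receptor and signalling genes were highest in replicate 3 for 2 of 11 genes among non-aggregates and for 4 of 11 among aggregates.

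Of 15 other sensing genes 3 rose and 3 fell. The adaptors Myd88, which serves Toll-like receptors, and Mavs, which serves RIG-I and MDA5, fell by 1.26 and 1.21, and the kinase gene Tbk1 fell by 0.47. Ikbke, a kinase that activates interferon regulatory factors, rose by 1.01. Aim2 and Sting1, not detected in normal arrays, passed the test with no fold given.

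Of 32 further interferon-stimulated genes 16 rose and 0 fell, with a median of 0.74. Ifi27l2a, not detected in normal arrays, was at least 11.8-fold higher in HCC. Lgals3bp, Ly6e, Trim30a, the chemokine gene Cxcl9 and Ifi27 rose by 2.96, 2.83, 2.16, 2 and 1.73 on the log2 scale. B2m, Psme1 and Psme2 had differences of 0.26, 0.14 and -0.29 that did not pass.

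Non-hepatocyte markers also had higher levels in HCC, in a comparison where 23% of all genes rose. Of macrophage genes 11 of 16 rose, of endothelial genes 17 of 18, of stellate cell and fibroblast genes 11 of 17, of T and NK cell genes 3 of 4 and of dendritic cell genes 2 of 4. The summed macrophage level was 10500 to 16740 in HCC and 1461 to 2131 in normal arrays, the endothelial one 10420 to 15670 and 1872 to 5124, and the T and NK cell one 1092 to 2018 and 664.2 to 848. Ccl5, a chemokine of T and NK cells, was at least 6.03-fold higher in HCC. Of 15 hepatocyte genes 2 rose, Alb by 1.69 on the log2 scale among them, and 4 fell, with Tat lower by 2.28 and Cyp2e1 by 1.08. The hepatocyte sum was 314300 to 333000 in HCC and 331200 to 340000 in normal arrays. The part of these cells in the members' rise was not tested.

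Scaling moved the balance of all calls in this comparison. Of all genes called, 47% were higher here, against 70.8% after median scaling, and the all-gene median moved from -0.08 to 0.18. The type I and gamma-type medians were then 1.62 and 1.06, and 15 members rose, where 31.1% of all genes did. Small differences near 0, such as those of Iigp1, Irgm1 and Ifi35, changed sign under some scalings and have no settled direction.

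The aggregate comparison asked whether premalignant cells that form aggregates differ from those that do not. No member passed: 0 of 30 rose and 0 fell in limma, where 0.761% of all genes rose and 0% fell. At an unadjusted p under 0.05 in limma, 3 members, Gbp2, Ifit2 and Irf8, were higher, beside 609 of all 10641 genes. The median log2 difference was -0.03 over type I and 0.08 over gamma-type members, beside -0.03 over all genes. With the replicate block in the fit on all arrays 0 members passed as well. In each group the mean rested on 1 array that was high for most members.

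Same-numbered premalignant arrays deviated together (correlations 0.706, 0.541 and 0.638 over all genes), so the differences within each number were read too. Irf8 was at 5.18, 4.77 and 5.04 in non-aggregates and at 5.79, 5.31 and 5.78 in aggregates. Its probe was dim and was detected on 11 of 12 arrays, with non-aggregate replicate 2 the exception. The groups did not overlap, and the differences by number were 0.61, 0.54 and 0.74. With the replicate block and only the premalignant arrays in the fit, added after the data were seen, Irf8 rose (log2 change 0.63, SE 0.08, adjusted p = 0.0215 in limma). Rsad2 was at 7.91, 7.53 and 8.47 in non-aggregates and at 8.38, 7.90 and 9.02 in aggregates. In the same fit Rsad2 rose (log2 change 0.46, SE 0.08, adjusted p = 0.0426). In that fit 4.2% of all genes rose, and over all 25 alternatives the adjusted p reached 1 for both genes.

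Gbp2 was at 6.14, 6.62 and 7.21 in non-aggregates and at 7.72, 6.94 and 8.15 in aggregates. Each number was higher in aggregates, by 1.58, 0.32 and 0.94, though the groups overlapped and the mean difference of 0.95 did not pass (SE 0.36, adjusted p = 0.444). Ifit2 was higher in aggregates by 0.87, 0.40 and 1.15. In all, 10 of 30 members (33.3%) were higher in aggregates for every number, against 19.6% of all genes, and 4 (13.3%) were lower, against 26.5%. Macrophage, endothelial and stellate cell markers were higher in aggregates beside these members, with 2 of 16, 5 of 18 and 3 of 17 rising, and their part was not tested.

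The pathway genes outside the members had 0 calls in aggregates as well. Ifi27l2a, Cxcl9 and Cxcl10 had differences of 2.15, 1.15 and 0.89, with adjusted p-values of 0.222, 0.0999 and 0.444. For the chemokine genes, which draw T cells, the groups did not overlap: Cxcl9 lay between 8.48 and 9.02 in non-aggregates and between 9.30 and 10.32 in aggregates.

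The difference between the tumour change and the aggregate change was tested as one contrast, in which the chip cancels. Of 30 members 2 rose more in HCC than in aggregates and 0 less, where 10.8% and 10% of all genes did. Tap1 changed by 1.99 in HCC and had a difference of 0.09 in aggregates, a gap of 1.90 (SE 0.38, adjusted p = 0.00501 in limma). For Ddx58 the values were 1.3 and 0.16, a gap of 1.14 (SE 0.37, adjusted p = 0.048 in limma). The Ddx58 gap passed in 10 of 23 alternatives and the Tap1 gap in 23 of 23.

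Igtp (2.01, adjusted p = 0.0705) and Bst2 (0.68, adjusted p = 0.0806) had the next lowest adjusted p-values. The median gap was 1.02 over type I members and 0.81 over gamma-type members, beside -0.03 over all genes. With Irf1 and Irf8 counted in, the gamma-type median was 0.347. With the replicate block 12 members passed, where 13.2% of all genes were higher, and with the third pair left out 5, where 6.34% were. That block also pairs same-numbered normal and HCC arrays, which did not deviate together. Of the pathway genes, Lgals3bp, Il10rb and Ifngr1 rose more in HCC by 2.63, 1.74 and 1.62, and Il18, Myd88 and Mavs were lower by 1.29, 1.24 and 1.14.

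Non-aggregate premalignant cells were set against normal hepatocytes to see what premalignant cells without aggregates carried, but here chip and group cannot be told apart. No member passed: 0 of 30 rose and 0 fell, where 0.78% of all genes rose and 0.714% fell. At an unadjusted p under 0.05 in limma there were 6 members, beside 832 genes higher and 777 lower of all 10641. The values of 27 of 30 members lay above 0, with a median of 0.76 over type I and 0.33 over gamma-type members beside -0.00414 over all genes. With the third premalignant pair left out these medians were 0.32 and 0.05.

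Oasl1 was at 7.80, 7.92 and 9.79 in non-aggregates and at 7.99, 8.16 and 9.84 in aggregates, where normal arrays lay between 6.08 and 6.58. All premalignant arrays were above all normal arrays, but the non-aggregate difference of 2.14 did not pass (adjusted p = 0.113). Ddx58 (0.93, adjusted p = 0.118) and Tap1 (0.82, adjusted p = 0.177) were likewise above the normal range in every premalignant array. Of the pathway genes, Irgm2 and Pml rose by 1.49 and 1.02 (adjusted p = 0.037 and 0.0464 in limma), and Socs3 fell by 2.70 (adjusted p = 0.0137).

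The type I and gamma-type lists were set side by side without a test, since the members were chosen with results of these data known. In HCC 4 of 17 type I and 4 of 11 gamma-type members rose, where 23% of all genes did, and the medians were 1.2 and 0.82. The third premalignant arrays were the highest of their group for 17 of 17 and 16 of 17 type I members, and for 11 of 11 and 11 of 11 gamma-type members. Genes of both lists therefore stood high in the same arrays, among them Mx2, Tapbp, Psmb10 and Irgm1, whose differences in HCC of -0.58, -0.52, -0.31 and -0.17 did not pass. Other probes of Tapbp and Irgm1 gave 0.92 and 0.76 in HCC, and the value of Tapbp ran from -0.94 to 0.20 over 25 alternatives.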

How the data were processed

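Biotin-labelled total RNA of each sample was read on 1 Illumina bead array (12 in all), as the labels' protocols describe. For 45281 probes the deposited table gives, per the file headers, a mean signal intensity and a detection p-value on each array. The deposited intensities are linear, and their lowest value of 30.6 gives no sign of a global background subtraction. The array software and annotation are not given in the sources used here. A second deposited table of normalized intensities from the authors has an unstated scale and centring; its column medians were 48.2 to 49.1 and its ranks followed the signal (Spearman at least 0.985 on each array), and it was used as an alternative.

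Intensities were corrected and quantile normalized with neqc (limma 3.58.1, R 4.3.3, background inferred from the detection p-values, offset 16), and log2 taken. Probe names came from the platform table: 34885 probes had 1 gene, 18 several and 10378 none, and symbols were updated through RefSeq for 34807. Probes detected on fewer than 3 arrays were left out, and the probe with the highest mean stood for a gene. Group means over 12 arrays were fitted with lmFit and eBayes, two-sided, with Benjamini-Hochberg adjustment over 10641 genes and calls at adjusted p below 0.05. The number of arrays limits the precision. Fold bounds for probes not detected in a group compare the brighter mean with the lowest detected signal. The tests were checked on simulated data. Same-numbered premalignant arrays deviated together (correlations 0.706, 0.541 and 0.638) and also lie side by side on their chip, while those of normal hepatocytes and HCC did not (-0.0107, 0.123 and 0.101). Figures were drawn with matplotlib 3.10.9 in Python 3.11.15.

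The members and gene lists were chosen with earlier results of these data known. All 36 members are named whatever their values, as are Psmb5, Psmb6 and Psmb7; a further gene under this rule is not reported here. Of each pathway list up to 6 and of each marker list up to 4 of the largest calls may be named in a comparison. Other pathway genes given with values (Ifngr2, Jak1, Pias1, Tbk1, Aim2, Sting1, B2m, Psme1, Psme2, Cxcl10) were chosen after their values were seen. The HCC value of Irgm2 was chosen in the same way.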

Additional observations from a re-analysis of the deposited data

Results flagged for a closer look

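Tap1 had a larger change in HCC against normal hepatocytes than in aggregates against non-aggregates, by 1.9 on the log2 scale (SE 0.381, adjusted p = 0.00501 in limma's test of the difference itself). Every HCC array was above every normal array, while in aggregates 2 of 3 numbers were higher than their non-aggregate partner. Ddx58 differed the same way by 1.14 (SE 0.373, adjusted p = 0.048 in limma). Its value passed in 10 of 23 alternatives, with adjusted p-values from 0.0158 to 0.114, and that of Tap1 passed in 23 of 23, from 0.00109 to 0.0156.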

How the results depend on the processing

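Over 25 alternatives no called member reversed, and 2743 member values kept their side of the threshold (144 of them, called in neither fit, changed sign), 81 passed only under the alternative and 26 passed only in the reported fit. In HCC against normal hepatocytes the 9 risers (4 of type I) became 15 (8) with median scaling, 14 (9) with only the arrays compared, 18 (11, and 1 lower) with the third premalignant pair left out, 19 (12, and 1 lower) with the replicate block and 15 (9) with the replicate block on only the arrays compared. The share of all genes that rose, 23% in the reported fit, was then 31.1%, 18.1%, 21.7%, 24.6% and 18.2%. Leaving out 1 array gave 7 to 13 (3 to 7 of type I, 0 to 1 lower), and the highest values came without non-aggregate or aggregate replicate 3. Since same-numbered normal and HCC arrays did not deviate together, that block has no pairing behind it. In aggregates against non-aggregates the 0 calls became 2 (1 of type I) with the replicate block on only the arrays compared. For the HCC change minus the aggregate change the 2 calls (1 of each list) became 12 (9 and 3) with the replicate block, 5 (2 and 3) with median scaling or the third pair left out, and 1 (0 and 1) without background correction, without the filter, with array weights, with chips normalized separately or with the deposited normalized values. There, leaving out 1 array gave 1 to 4 (0 to 2 and 1 to 2), the highest without aggregate replicate 3. The gamma-type median in that contrast was 0.347 with Irf1 and Irf8 counted in. Apart from the fit settings and scaling named, the cause was not tested. Of all genes called in HCC, 47% were higher, 56.7% with cyclic loess, 58.8% with the deposited normalized values and 70.8% with median scaling. Calls in aggregates over all genes were 81 higher, against 222 with only the arrays compared, 351 with array weights, 447 with the replicate block on only the arrays compared and 0 with the third pair left out. The 5 members detected on fewer than 3 arrays could not be tested, and differences of dim probes are understated by the offset.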
